A study of Mus musculus with 6 samples.

Results

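Hyaluronan and the large proteoglycans form much of the hydrated matrix around cells, and 10 mouse genes of this system were followed in RPE-choroid with and without subretinal fibrosis (SRF). The genes were chosen by name for their function, with earlier results of these data known. They are the hyaluronan synthases Has1 and Has2, the hyaluronidases Hyal1 and Hyal2, the hyaluronan receptor Cd44, the chondroitin sulfate proteoglycan Vcan (versican), the basement membrane heparan sulfate proteoglycans Hspg2 (perlecan) and Agrn (agrin), and the cell surface heparan sulfate proteoglycans Sdc1 and Sdc4 (syndecans). All 10 were among the 15663 genes listed in the tables, and 8 of them had enough counts to be tested.

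Hyaluronan is a long unbranched sugar chain that synthases in the plasma membrane extrude into the matrix, that hyaluronidases cut, and that CD44 and versican bind. Perlecan and agrin are built into basement membranes, among them those of the RPE and of the choroidal capillaries on either side of Bruch's membrane, and syndecans carry heparan sulfate chains on the cell surface, where they bind growth factors and matrix proteins. In wound repair this system is known as part of the provisional matrix that precedes and accompanies a collagen scar.

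The tissue was RPE-choroid, the pigment epithelium behind the photoreceptors together with the vascular layer beneath it, from male C57BL/6J mice aged 8 to 10 weeks. The 3 control mice were healthy and had no laser. In the 3 SRF mice each eye received 4 laser burns, every lesion was burned again after 10 days, and the RPE-choroid was collected 20 days after that. A library was made from each mouse, so n = 3 in each group and errors are SDs over mice. The groups carry no transgene, allele or drug under study. The laser procedure included pentobarbital anaesthesia and pupil-dilating drops, and whether the controls received these is not stated. A whole RPE-choroid holds both lesions and the tissue between them, and in such bulk tissue fewer cells of a type and less RNA per cell cannot be told apart.

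Counts on listed genes summed to between 13667310 and 24356023 per library, so that 3 counts stood for 0.123 to 0.22 CPM, the counts scaled to a common library size after TMM normalization. The tissue label fitted the markers: all 10 RPE markers were listed and none was near 0. Their summed level was lower in SRF without overlap, at 35357 to 43973 CPM against 49363 to 56857 CPM in control. The genes were mixed in direction, with 4 of 10 higher in SRF and a median log2 fold change of -0.29. An unadjusted edgeR p under 0.05 came from 4 of 10 and a DESeq2 call from 2. Their mean log2 CPM was 10.54 to 10.71 in SRF and 10.77 to 10.89 in control. Libraries control 1 and SRF 3 stood apart, with a mean log2 CPM of 8.45 and 8.43 over 14 photoreceptor markers against 4.35 to 5.66 in the other 4 libraries. Markers of ocular surface epithelium were also uneven, with a summed level from 273 to 2426 CPM, and their highest and lowest values were both in the control group. Macrophage and microglia markers were higher in SRF, at 2851 to 4245 CPM summed against 1229 to 1598 CPM in control, with 11 of 12 genes higher.

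No difference between SRF and control passed the test in any of the 8 tested genes. With edgeR's quasi-likelihood test and Benjamini-Hochberg adjustment over 13454 genes, 0 of 8 were called (adjusted p under 0.05, and a log2 difference of 0.5 or more in either direction), where 0% of all tested genes were called. At an unadjusted p under 0.05 there were 0 of 8, where 7.01% of all tested genes passed. DESeq2 called 0 of 8, beside 1.14% of all genes. The CPM of control and SRF did not overlap for 1 gene of 8, Cd44, a share of 12.5% that was close to the 13.1% among all tested genes. On the log2 scale 4 of the 8 were higher and 4 lower in SRF, and their differences lay between -0.28 and 0.50. For reference, Mmp12, the macrophage elastase, had the smallest adjusted p of all tested genes (0.0504 with edgeR and Benjamini-Hochberg adjustment), at 17.5 ± 3.74 CPM in control and 92.4 ± 6.25 CPM in SRF (SD, n = 3).

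**Figure D1:**
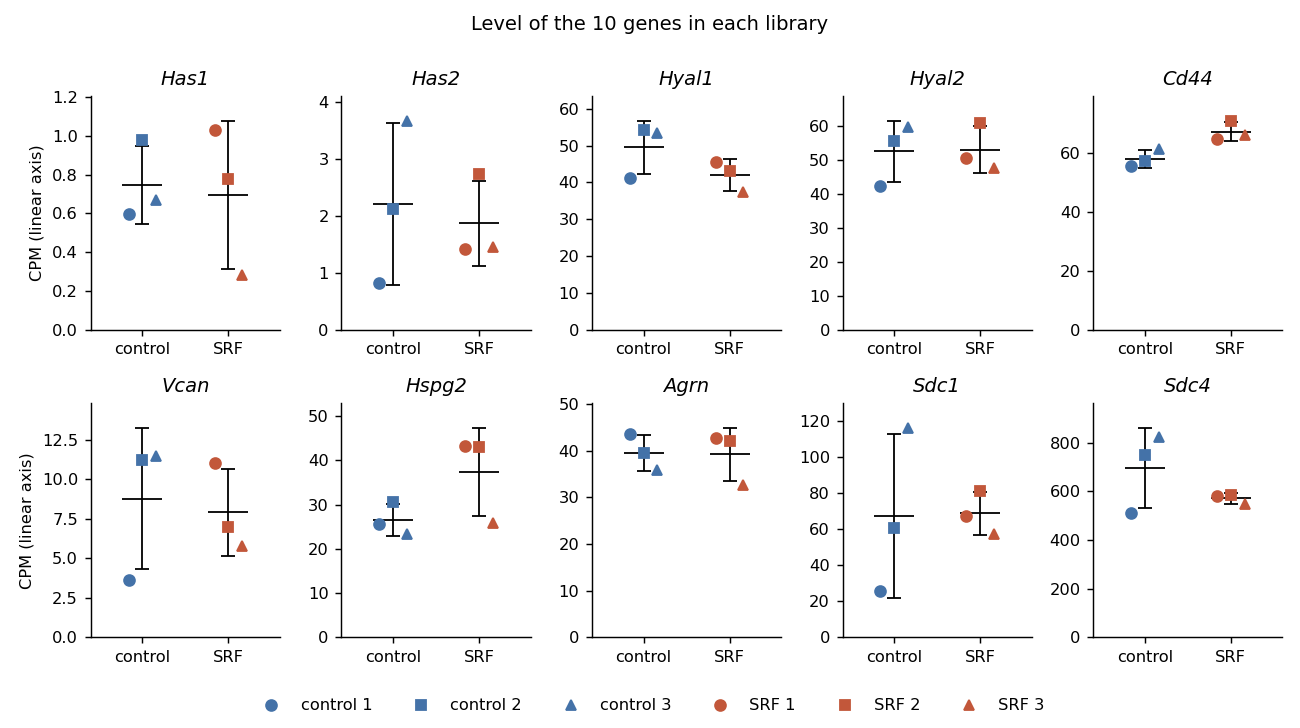
CPM (linear axes from 0) of the 10 genes in the 3 control (blue) and 3 SRF (red) libraries, with a panel for each gene, points for single mice, and lines for the mean with bars of 1 SD. Cd44 is the gene whose groups do not overlap, at 55.4 to 61.2 CPM in control and 64.7 to 70.8 CPM in SRF, and Sdc1 spans 25.7 to 116 CPM in control alone.

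The hyaluronan synthases had the lowest levels of the set. Has2, which makes most of the hyaluronan in many connective tissues, lies on chromosome 15 (56665627 to 56694539, minus strand; GRCm38, as are all positions here). Its counts were 11, 39 and 88 in controls 1 to 3 and 26, 49 and 26 in SRF 1 to 3, which is 0.819, 2.12 and 3.67 CPM against 1.41, 2.73 and 1.46 CPM. All SRF values lay inside the control range. Has1 (chromosome 17, 17843323 to 17855205, minus strand) had 8, 18 and 16 counts in the control libraries and 19, 14 and 5 in the SRF libraries, or 0.747 ± 0.202 CPM against 0.696 ± 0.381 CPM. SRF held both its highest and its lowest value. Neither synthase passed 50 counts in 2 libraries, and in a fit without that filter the log2 fold change was -0.26 (SE 0.58) for Has2 and -0.11 (SE 0.55) for Has1. No difference was found at these low counts. The standard errors are far above the median of 0.19 over tested genes, so the differences are poorly bounded. Exons of Has2 overlap the opposite-strand gene Has2os in the annotation, and whether the counting used strand is not given in the sources used here.

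The hyaluronidases were readily measured in every library, and their groups overlapped. Hyal1 (chromosome 9, 107576927 to 107581710, plus strand), an enzyme of the lysosome that cuts hyaluronan into short pieces, had 41.2, 54.1 and 53.3 CPM in control and 45.5, 43.2 and 37.3 CPM in SRF. The control 1 library lay among the SRF libraries and the other 2 controls lay above all of them. The log2 fold change was -0.24 (SE 0.15), with a 95% interval from -0.60 to 0.12 (edgeR, Benjamini-Hochberg adjusted p = 0.883). Hyal1 exons overlap those of Hyal3 and Naa80 on the same strand, both also listed, so its count depends on how shared reads were divided.

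Hyal2 (chromosome 9, 107567945 to 107572779, plus strand) codes for a hyaluronidase held on the outer cell surface by a lipid anchor. Its level was 42.4, 55.7 and 59.7 CPM in control and 50.7, 60.9 and 47.7 CPM in SRF. The groups overlapped almost completely. The means were 52.6 ± 9.05 and 53.1 ± 6.94 CPM, the log2 fold change was 0.01 (SE 0.17), and the interval of the difference allows anything from 0.764-fold to 1.33-fold. Its sign turned under 9 of 24 alternative settings, so no direction is given.

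Cd44 (chromosome 2, 102811141 to 102901665, minus strand), the main hyaluronan receptor of leukocytes, fibroblasts and many epithelia, varied little within groups. It was at 55.4, 57.1 and 61.2 CPM in control and at 64.7, 70.8 and 65.8 CPM in SRF. Every SRF library lay above every control library, with a gap of 61.2 to 64.7 CPM. Its coefficient of variation was 5.17% in control and 4.81% in SRF, against medians of 14.0% and 15.7% over tested genes. The mean ratio was 1.16, the log2 fold change was 0.21 (SE 0.11), and its 95% interval ran from -0.04 to 0.46 (edgeR, Benjamini-Hochberg adjusted p = 0.785). The exact two-sided permutation test gave p = 0.1, the smallest value that 3 against 3 allows. The estimate lay between 0.17 and 0.27 under all 24 alternatives, of which 3 gave an unadjusted p under 0.05 and 0 an adjusted one. The macrophage and microglia markers, whose cells also carry CD44, did not overlap between the groups either, and their part in the Cd44 values was not tested.

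Versican, the chondroitin sulfate proteoglycan that binds hyaluronan through its head domain, was low and uneven. Vcan (chromosome 13, 89655312 to 89742509, minus strand) was at 3.65, 11.2 and 11.5 CPM in control and at 11.0, 6.96 and 5.77 CPM in SRF. The control group held both the lowest and the highest library, and its lowest, control 1, had 49 counts. The log2 fold change was -0.15 (SE 0.47) and its 95% interval ran from -1.26 to 0.95. Leaving out control 1 alone took the estimate to -0.52, still with an adjusted p of 0.784 (edgeR, Benjamini-Hochberg).

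Vcan was also the gene whose counts and FPKM disagreed most. FPKM, which the authors scaled by transcript length and library size, gave 0.60, 1.56 and 1.39 in control and 1.45, 1.04 and 1.53 in SRF, and on that scale the log2 difference was 0.24, higher in SRF (limma on log2(FPKM + 0.1)). Dividing count by FPKM gives the transcript length that the pair of values implies. For Vcan this was 5975, 6992 and 8152 nt in control and 7702, 6854 and 3801 nt in SRF, with the SRF 3 library far below the rest. The highest was 2.14 times the lowest, a spread that 0.773% of tested genes reached, with a median of 1.03. Versican is known to be made in splice forms that keep or skip the large exons carrying its sugar chains, and 9 transcripts of up to 12427 nt are annotated. Which forms were present was not measured here. Hyal2 followed with a spread of 1.25, and no other gene of the set exceeded 1.06.

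Of the basement membrane proteoglycans, perlecan had the largest difference of the set and agrin almost none. Hspg2 (chromosome 4, 137468769 to 137570630, plus strand) was at 25.7, 30.5 and 23.3 CPM in control and at 43.2, 43.0 and 25.9 CPM in SRF. SRF 1 and SRF 2 lay above all controls, while SRF 3 lay inside the control range. The log2 fold change was 0.50 (SE 0.22), with a 95% interval from -0.03 to 1.02 and an unadjusted p of 0.0609 that became 0.749 after Benjamini-Hochberg adjustment (edgeR).

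The Hspg2 estimate moved with single libraries, most with SRF 3. Without SRF 3 the log2 fold change was 0.71 (edgeR, unadjusted p = 0.00261 and Benjamini-Hochberg adjusted p = 0.243). Leaving out SRF 1, SRF 2 or control 3 gave 0.38, 0.39 and 0.41 (edgeR, unadjusted p = 0.175, 0.184 and 0.165). Leaving out control 1 or control 2 gave 0.48 and 0.61. Without both control 1 and SRF 3, the libraries rich in photoreceptor RNA, it was 0.68 (SE 0.17, adjusted p = 0.0996). With the photoreceptor level of each library as a term it was 0.43 (SE 0.19; adjusted p = 0.568). Hspg2 was higher in SRF under all 24 alternatives, between 0.32 and 0.71, and called under 0 of them. Its longest transcript, of 14187 nt, has a GC content of 60.9%, against a median of 49.7% over tested genes, and with the GC offset the log2 fold change was 0.33, or 0.32 with the replicate block as well. An unadjusted p under 0.05 came from 6 of the 24 alternatives.

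Agrn (chromosome 4, 156165290 to 156197488, minus strand) codes for agrin, known from the neuromuscular junction and from basement membranes of the eye and kidney. It was at 43.5, 39.4 and 35.8 CPM in control and at 42.7, 42.1 and 32.7 CPM in SRF. The groups overlapped, with means of 39.6 ± 3.88 and 39.2 ± 5.59 CPM. The log2 fold change was -0.02 (SE 0.15), and the interval allows 0.776-fold to 1.26-fold. Its sign turned under 9 of 24 alternatives.

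The syndecans showed the highest level of the set and the widest spread. Sdc4 (chromosome 2, 164424247 to 164443887, minus strand), a syndecan found at focal adhesions, was at 509, 749 and 824 CPM in control and at 580, 586 and 546 CPM in SRF. The control 1 library lay below all SRF libraries, and controls 2 and 3 lay above them. The SRF libraries were within 1.07-fold of each other, with a coefficient of variation of 3.77%, and the control libraries were within 1.62-fold, at 23.7%. This difference in spread was not tested. The log2 fold change was -0.28 (SE 0.19), with a 95% interval from -0.72 to 0.16 (edgeR, Benjamini-Hochberg adjusted p = 0.888). Without control 1 and SRF 3 it was -0.44 (SE 0.13), with an adjusted p of 0.147 (edgeR, Benjamini-Hochberg). Without control 1 alone it was -0.46 and without control 3 alone it was -0.14, so single control libraries set its size. Sdc4 was lower in SRF under all 24 alternatives.

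Sdc1 (chromosome 12, 8771323 to 8793715, plus strand), the syndecan of stratified epithelia and plasma cells, was at 25.7, 60.8 and 116 CPM in control and at 67.4, 81.3 and 57.4 CPM in SRF. The control libraries spanned 4.51-fold and enclosed the SRF libraries, which spanned 1.42-fold. The means were 67.5 ± 45.5 and 68.7 ± 12.0 CPM, and the log2 fold change was 0.02 (SE 0.48), with a 95% interval from -1.11 to 1.16.

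The order of the 6 libraries by Sdc1 was the same as their order by the summed CPM of ocular surface epithelium markers. The 10 markers, keratins of stratified epithelium and epithelial adhesion genes among them, summed to 273, 1187 and 2426 CPM in control and to 1199, 1225 and 674 CPM in SRF. Both series were lowest in control 1, next in SRF 3, and highest in control 3. By the mean log2 CPM of the same markers the middle 3 libraries ran the other way, with 6.03 in control 2, 5.93 in SRF 1 and 5.82 in SRF 2, and single markers such as Krt12 had other orders. The keratin Krt15 alone, at 131 to 1459 CPM, made up much of the sum, and none of the 10 markers had a count of 3 or less in any library. The 6 plasma cell markers summed to 24.4 to 37.1 CPM, and their lowest library was control 3, where Sdc1 was highest. With the surface marker level of each library as a term, an alternative chosen after the data were seen, the Sdc1 log2 fold change was 0.31 with an SE of 0.16 in place of 0.48 (edgeR, Benjamini-Hochberg adjusted p = 0.68). That term was chosen because Sdc1 followed these markers, so its fit restates that likeness, and the part of surface tissue in the Sdc1 values was not tested.

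**Figure D2:**
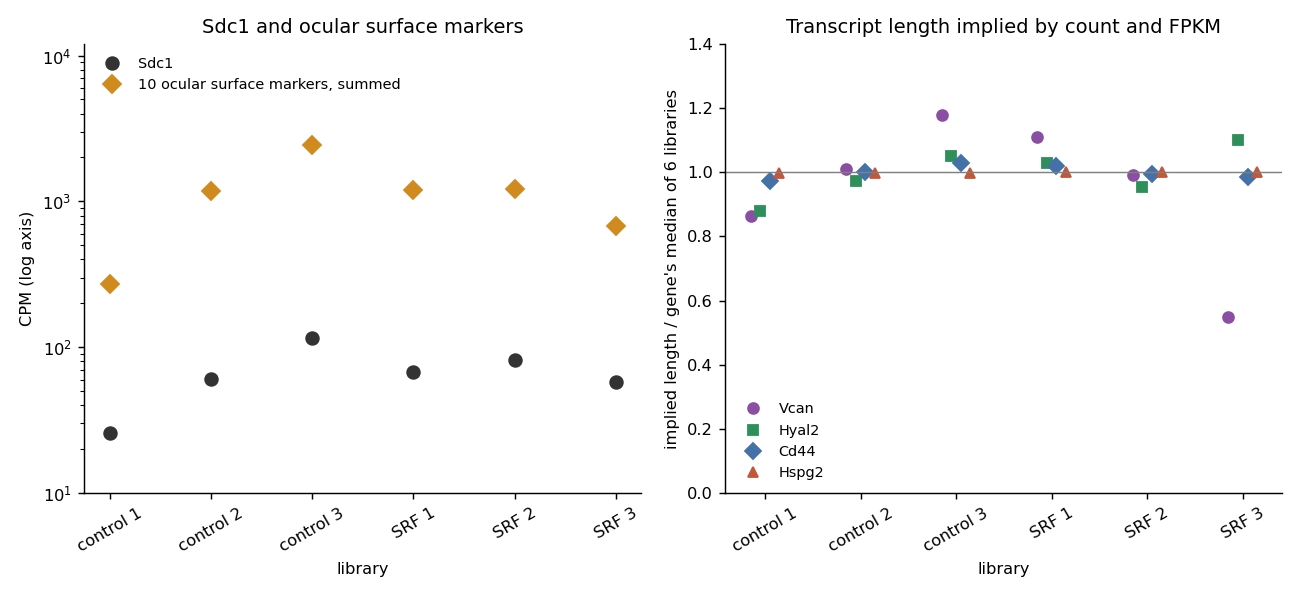
Left, CPM on a log axis of Sdc1 (dark circles) and of 10 ocular surface epithelium markers summed (orange diamonds) in each of the 6 libraries; both run from their lowest value in control 1 (25.7 and 273 CPM) to their highest in control 3 (116 and 2426 CPM). Right, the transcript length implied by count and FPKM in each library, divided by that gene's median of 6 libraries; Vcan falls to 0.549 in SRF 3, whereas Hspg2 and Cd44 stay between 0.973 and 1.03.

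Across the set, the low values gathered in control 1 and SRF 3. These libraries were rich in photoreceptor RNA and also lowest in summed ocular surface markers, at 273 and 674 CPM. The parts of photoreceptor and surface tissue cannot be told apart here. Control 1 was the lowest library for 6 of the 10 genes (Has2, Hyal2, Cd44, Vcan, Sdc1 and Sdc4) and SRF 3 for 3 more (Has1, Hyal1 and Agrn). Hspg2 was lowest in control 3, and Agrn was highest in control 1. Among all tested genes 42.9% had their lowest library in this pair. The libraries belong to different groups, so a low value in control 1 raises the SRF difference of a gene and a low value in SRF 3 lowers it. Without the pair, in 2 against 2 libraries, the CPM of the groups did not overlap for 6 of the 8 tested genes, all but Hyal2 and Sdc1, where 49.9% of all tested genes did not overlap. By edgeR 2 of 8, Hspg2 (unadjusted p = 0.00278) and Sdc4 (unadjusted p = 0.00792), were under 0.05 in that comparison, beside 17.6% of 13145 genes. None of the set was called there, where edgeR called 153 genes (1.16%).

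**Figure D3:**
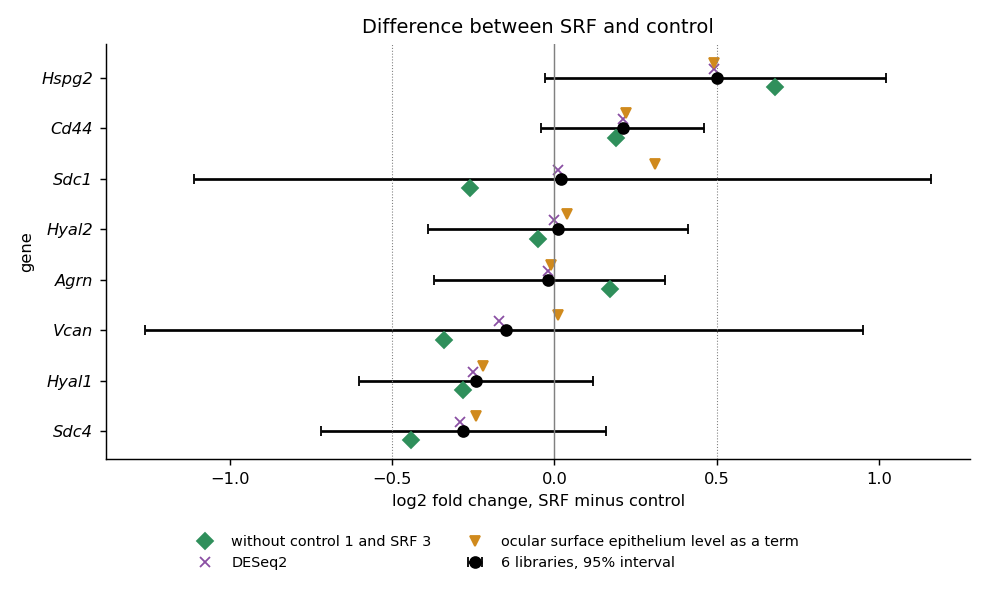
Log2 fold change (SRF minus control) of the 8 tested genes by edgeR with 95% intervals (black), and the estimates without control 1 and SRF 3 (green), by DESeq2 (purple) and with the ocular surface level as a term (orange); dotted lines mark 0.5 either way. Every interval includes 0, and those of Sdc1 (-1.11 to 1.16) and Vcan (-1.26 to 0.95) are the widest.

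Compared per transcript length, Sdc4 led by far. Its FPKM was 277 ± 65.6 in control and 236 ± 10.5 in SRF, at the 98.2th percentile of listed genes. Hyal2 followed at 30.1 ± 2.72 and 30.1 ± 6.28 FPKM, and then Sdc1, Hyal1, Cd44, Agrn, Hspg2, Vcan, Has2 and Has1 in both groups. The gaps from Sdc4 to Hyal2, from Cd44 to Agrn, from Agrn to Hspg2 and from Hspg2 to Vcan held in every library of both groups. Neighbours that overlapped in both groups were Hyal2 with Sdc1 and Has2 with Has1. In control, Sdc1 also overlapped Hyal1 and Vcan overlapped Has2, and in SRF Hyal1 (15.8 ± 1.49 FPKM) overlapped Cd44 (15.5 ± 1.01 FPKM).

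**Figure D4:**
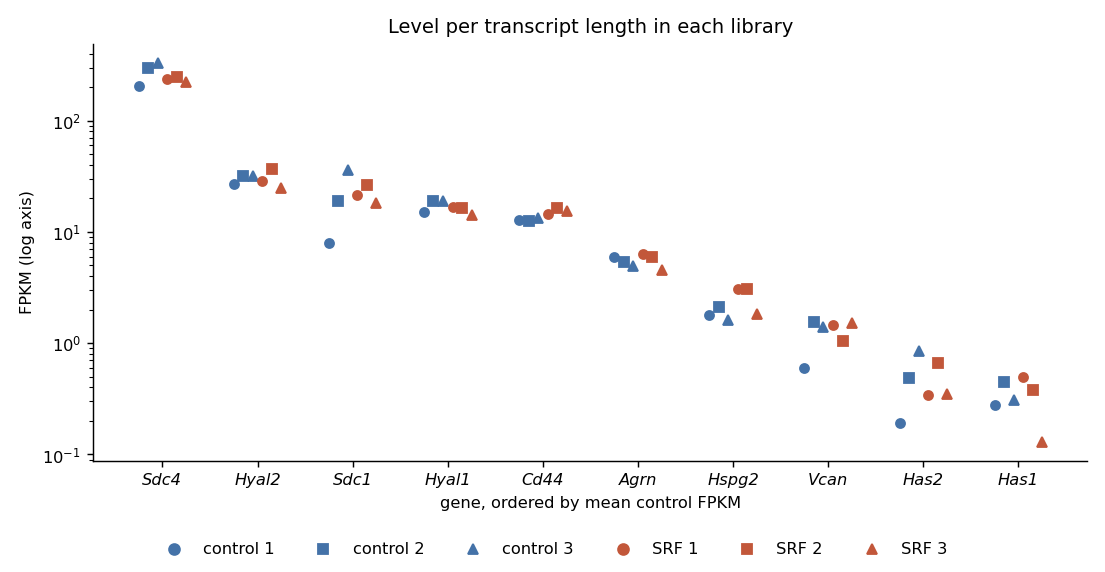
FPKM (log axis) of the 10 genes in each library, ordered by mean control level, with control libraries in blue and SRF libraries in red. Sdc4, between 203.6 and 330.01 FPKM, stands clear of Hyal2 below it, and Has2 and Has1 overlap at the bottom.

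The genes of the set did not share a single profile. When log2 CPM was centred over the 6 libraries, the closest pair was Hyal1 and Sdc4, with a root mean square difference of 0.11, below the 0.19 and 0.25 by which each moved around its own mean. Hyal2 was nearest to Hyal1 (0.16) and Cd44 to Hyal2 (0.17). Hspg2 was nearest to Agrn, but at 0.29, and Vcan and Sdc1, the pair with the widest spread, were 0.40 apart. Sdc1 was the farthest gene from 6 of the other 7. These distances are over 6 libraries that differ in depth and in photoreceptor content, and they describe likeness only.

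The wider pathway was covered by 10 lists with 114 genes, the set included, of which 107 were listed and 96 tested. edgeR called 0 of the 96 and DESeq2 called 3, Bcan, Hs3st3a1 and Mmp14. At an unadjusted p under 0.05 there were 14 genes, 14.6% of the 96 against 7.01% of all tested genes, and all 14 were higher in SRF. Of the 943 genes under 0.05 among all tested genes, 560 were higher and 383 lower. Of the 96, 59 were higher and 37 lower, the groups did not overlap for 18 (18.8%, against 13.1% of all), and the median log2 fold change was 0.08 against 0.00 over all tested genes. The count at an unadjusted p under 0.05 was between 6 and 18 higher and between 0 and 6 lower over the 24 alternatives, the 6 lower without control 1 and SRF 3. The number higher fell to 7 without control 1, 7 without control 2 and 6 without SRF 2. It was 14 without control 3, 12 without SRF 1 and 15 without SRF 3. Each of these fits leaves a pair of mice in 1 group, so the number depended on which mouse was left out. Without control 1 also 4 pathway genes were lower, while 1055 of all genes were under 0.05, against 943 in the main fit.

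**Figure D5:**
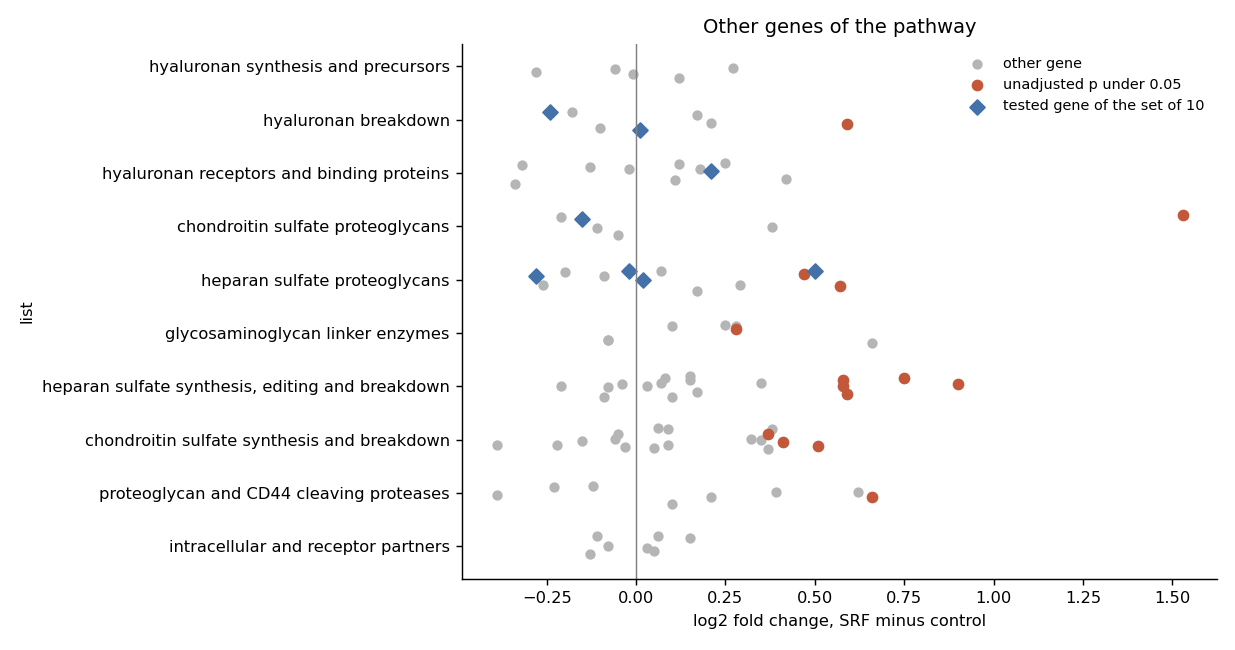
Log2 fold change (SRF minus control) of the 96 tested pathway genes, with a row for each of 10 lists. Blue diamonds are the tested genes of the set of 10, red points are the 14 genes with an unadjusted edgeR p under 0.05, all to the right of 0, and grey points are the rest; Bcan stands out at 1.53.

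Among hyaluronan genes the list medians were small, at -0.01 for synthesis, 0.01 for breakdown and 0.11 for receptors and binding proteins. In the list of synthesis and precursor enzymes 5 of 8 genes were tested, 0 had an unadjusted p under 0.05, and the differences lay between -0.28 and 0.27. Has3 had 3 to 15 counts and was not tested. In the breakdown list 7 of 8 were tested, with 4 higher and 3 lower and a median of 0.01. Of 10 tested receptors and binding proteins 0 of 10 were under 0.05, with 6 higher and 4 lower.

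Among chondroitin sulfate proteoglycans the largest difference was in brevican. Bcan, a hyaluronan-binding relative of versican best known from the brain, was at 4.99, 3.20 and 2.84 CPM in control and at 12.6, 11.5 and 7.67 CPM in SRF. All SRF libraries lay above all controls. The log2 fold change was 1.53 (SE 0.32), with an adjusted p of 0.298 by edgeR and 0.00398 by DESeq2 after Benjamini-Hochberg adjustment. Bcan is among the genes that the study itself selected on these libraries, so its direction is not independent evidence. The Bcan and Vcan differences were not tested against each other. In that list 6 of 8 genes were tested and 1 (16.7%, against 7.01% of all tested genes) was under 0.05.

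Of 12 tested heparan sulfate proteoglycans, 2 (16.7%, against 7.01% of all tested genes) were under an unadjusted p of 0.05, Gpc6 and Gpc1. Gpc6, a glypican held to the membrane by a lipid anchor, was at 51.0, 46.6 and 59.9 CPM in control and at 72.4, 85.4 and 75.9 CPM in SRF. Its groups did not overlap, and the log2 fold change was 0.57 (SE 0.14; edgeR, Benjamini-Hochberg adjusted p = 0.374). Of 7 linker enzymes 1 (14.3%, against 7.01% of all tested genes) was under 0.05, with a list median of 0.25.

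In the list of heparan sulfate synthesis, editing and breakdown 5 of 17 genes (29.4%) were under an unadjusted p of 0.05, all higher in SRF. Among all tested genes the share was 7.01%, with 560 genes higher and 383 lower. The groups did not overlap for 5 of the 17 (29.4%), against 13.1% of all tested genes. They include Hpse, the heparanase that cuts the chain, beside enzymes that sulfate or desulfate it, and the share was not tested against those of other lists. Hs3st3a1, a 3-O-sulfotransferase, was at 31.2, 33.3 and 34.5 CPM in control and at 54.3, 69.3 and 42.8 CPM in SRF, without overlap. Its log2 fold change was 0.75 (SE 0.18), with an adjusted p of 0.397 by edgeR and 0.0476 by DESeq2 (Benjamini-Hochberg). Sulf2, which removes 6-O-sulfates outside the cell, differed by 0.58 (SE 0.16) and Ndst2, an N-deacetylase and N-sulfotransferase, by 0.58 (SE 0.19), both without overlap between groups. Their adjusted p-values were 0.422 and 0.548 (edgeR, Benjamini-Hochberg). Sulf2 lies across the opposite-strand gene Ncoa3 in the annotation.

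In the chondroitin sulfate enzyme list 3 of 17 genes (17.6%, against 7.01% of all tested genes) were under 0.05. Chpf2, a chondroitin polymerizing factor, was at 26.0, 24.3 and 28.0 CPM in control and at 38.3, 39.1 and 34.1 CPM in SRF, and differed by 0.51 (SE 0.12; edgeR, Benjamini-Hochberg adjusted p = 0.355). Chpf2 overlaps Smarcd3 on the opposite strand, and without knowledge of the strand setting reads of the pair cannot be told apart. Of 8 proteases that cut proteoglycans or CD44, 1 (12.5%, against 7.01% of all tested genes) was under 0.05. Mmp14, a membrane-bound matrix metalloproteinase that can shed CD44, was at 93.9, 115 and 132 CPM in control and at 164, 210 and 165 CPM in SRF, with a log2 fold change of 0.66 (SE 0.17) and an adjusted p of 0.41 by edgeR and 0.0498 by DESeq2 (Benjamini-Hochberg). Of 7 intracellular and receptor partners 0 were under 0.05, and their differences lay between -0.13 and 0.15.

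The pathway genes Bcan, Gpc6, Hs3st3a1, Sulf2, Ndst2, Chpf2 and Mmp14 were higher in SRF under each of the 24 alternatives. edgeR without control 1 and SRF 3 called Bcan (log2 fold change 1.99, Benjamini-Hochberg adjusted p = 0.0154) and Hs3st3a1 (0.86, adjusted p = 0.0424), together with the protease gene Adamts1, whose log2 fold change over all 6 libraries was -0.39 (SE 0.34). Also under an unadjusted p of 0.05 were Gpc1, Xylt2, Hs6st2, Hpse, Chpf and Chst14, between 0.28 and 0.90, and these and Adamts1 are named after their values were seen. Other cell type markers moved in these libraries too. Those of macrophages and microglia were higher in SRF without overlap of their sums (11 of 12 genes, median log2 fold change 0.70). The summed RPE markers were lower, though 4 of those 10 genes were higher. Fibroblast markers (8 of 8 higher, 0.44) overlapped between groups, at 4424 to 10367 CPM in control and 6857 to 11293 CPM in SRF. Skeletal muscle markers (8 of 8 higher, 0.40) did too, at 1223 to 2072 and 800 to 2876 CPM. An unadjusted edgeR p under 0.05 came from 1 of 8 fibroblast and 0 of 8 muscle genes. The 7 lens markers had the largest median, -2.44, with 2 higher and 4 under an unadjusted edgeR p of 0.05. Their sums overlapped, at 562 to 699 CPM in control and 498 to 732 CPM in SRF. Counts of 3 or less occurred for 2 of the lens markers. The part of these cell types in the pathway values was not tested.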

How the data were processed

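RNA-seq of RPE-choroid from 3 control and 3 SRF mice was used, grouped by the sample labels. The authors filtered reads with FASTP (0.18.0) and quantified genes with StringTie, and they deposited whole-number counts per gene and FPKM, which they scaled by transcript length and library size. The aligner, the genome build and the strand setting are not given in the sources used here. Positions and overlaps come from GENCODE M21 (GRCm38), which held 15659 of 15663 identifiers.

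Genes that exceeded 50 counts in 2 or more libraries were tested with edgeR 4.0.16 (TMM, glmQLFit in its legacy form, glmQLFTest) in R 4.3.3, with Benjamini-Hochberg adjustment over all 13454, and called where the adjusted p was under 0.05 and the log2 difference 0.5 or more either way. CPM are TMM-normalized, and 95% intervals come from the same fit. Permutation tests were exact and two-sided. DESeq2 1.42.0, limma 3.58.1, other scalings and filters, GC and length offsets, a photoreceptor term, a replicate block and libraries left out were alternatives, and an ocular surface term was added after the data were seen. The tests were checked on simulated counts.

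The genes and lists were chosen with earlier results of these data known. All 10 genes of the set are named and, from each list, up to 3 higher and 3 lower genes with an unadjusted p under 0.05 and a log2 difference of 0.5 or more, with Bcan. The lists of the pathway hold the genes of the set too. Mice of 1 group are separate animals. Intervals cover the spread between these libraries only. Protein sequences were not used here. A pathway gene that the counts include is not reported here by name.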

Additional observations from a re-analysis of the deposited data

How the results depend on the processing

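No gene of the set was called under any of the 24 alternatives. Hyal1 (-0.35 to -0.15), Cd44 (0.17 to 0.27), Hspg2 (0.32 to 0.71) and Sdc4 (-0.46 to -0.14) kept their direction in all of them. Hyal2, Agrn and Sdc1, with differences near 0 in the main fit, and Vcan, at -0.15, changed sign in some of them. The cause was not tested. limma on FPKM gave -0.01 for Hyal2 and 0.05 for Agrn, with 0.24 for Vcan at a pseudocount of 0.1 with and without the filter, and 0.12 for Vcan and 0.04 for Agrn at a pseudocount of 1. Agrn was at 0.00 with upper quartile scaling and with the length offset, and at 0.03 with library totals. Hyal2 was at 0.00 with the photoreceptor term, and Vcan at 0.01 with the ocular surface term. Without control 1 and SRF 3, Hyal2 was at -0.05, Agrn at 0.17 and Sdc1 at -0.26, and with the GC offset Hyal2 and Sdc1 were at -0.05.

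Leaving out each mouse in turn gave -0.12 to 0.11 for Hyal2, -0.08 to 0.11 for Agrn, -0.52 (without control 1) to 0.09 for Vcan and -0.36 (without control 1) to 0.66 (without control 3) for Sdc1. The genes called over all genes tested numbered 0 in the main fit, 153 with DESeq2 and 153 without control 1 and SRF 3, 2 with limma on FPKM, 1 with legacy = FALSE, limma-voom, upper quartile, library totals, no filter, filterByExpr and the photoreceptor and ocular surface terms, and 0 to 5 with a mouse left out. The pathway genes called were 3 with DESeq2 and 3 without control 1 and SRF 3. Scaling by library totals moved the median of all genes to 0.05. With limma on FPKM that median was 0.05, or 0.06 without the filter.

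Mouse numbers are shared by control and SRF but mark different animals. Deviations of same-numbered mice correlated at -0.48, 0.49 and -0.30 over 13454 genes, without a common sign. Control 1 and SRF 3, the libraries rich in photoreceptor RNA, correlated at 0.61. With such content in the values, they cannot decide whether same-numbered mice shared a batch. With the replicate block the calls were 0 of the set and 0 of all genes, and with the block and GC offset Hyal2 was at -0.04. With 3 mice a group and a median SE of 0.19, differences such as those of Vcan and Sdc1 (SE 0.47 and 0.48) are poorly bounded, and Has1 and Has2 are limited by counts.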
